A study of Homo sapiens with 28 samples.

Results

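Accessible chromatin was compared between AN3CA cells expressing wild-type ARID1B and AN3CA cells carrying an empty vector that were handled in the same run. The comparison uses 4 of the 28 deposited libraries, namely ARID1B_WT 1 and 2 and Empty_vector 3 and 4. They were chosen because their titles name these constructs and because the peak names in their lists share 1 date code, which 6 libraries carry in all. AN3CA is an established human endometrial carcinoma cell line. Per the labels all groups are this line, and per the titles they differ in the expressed construct. ARID1B_WT cells express wild-type ARID1B and Empty_vector cells express the vector control. All 24 other libraries of the series (12 groups) served to score the regions found here, chiefly ARID1B_S320_G327del 1 and 2 of the same run, whose title names a deletion in ARID1B, and ARID1A_WT 1 and 2 (wild-type ARID1A) and Empty_vector 1 and 2 of the other runs. The labels give the same serum share, CO2 and temperature of culture for all 28 libraries. They give no promoter, expression level or clone for any construct, and do not say which libraries came from separate cultures. The p-values therefore measure only the spread between these libraries, which may be technical.

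ATAC-seq uses a transposase that cuts and tags open DNA, so that a peak marks a stretch of accessible chromatin. ARID1B and its paralog ARID1A are large, mutually exclusive subunits of the canonical BAF (cBAF) remodeling complex, which slides and evicts nucleosomes with energy from ATP. Both proteins carry a DNA-binding ARID domain and long disordered stretches. cBAF is known for keeping distal enhancers accessible, and ARID1A is often mutated in endometrial carcinoma. The series title asks how ARID1A and ARID1B act in cBAF condensation and in transcriptional activation.

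The lists of the ARID1B_WT libraries were more than doubled in length against the Empty_vector lists of the same run. They held 63529 and 59826 peaks in ARID1B_WT 1 and 2, against 24573 and 28353 peaks in Empty_vector 3 and 4. The mean was 61678 ± 2618 peaks in ARID1B_WT and 26463 ± 2673 peaks in Empty_vector (SD, n = 2 each), a ratio of 2.33. The groups did not overlap, and the exact permutation test (two-sided) gave p = 0.333, the smallest that the 6 splits of 2 against 2 libraries allow. That limit holds for every 2 against 2 test given here. The peaks covered 42.7 and 37.4 Mb in ARID1B_WT, against 19.1 and 23.7 Mb in Empty_vector. They were narrower in the longer lists, with a median of 517 and 482 bp in ARID1B_WT and 682 and 689 bp in Empty_vector. The median fold enrichment over the background estimated by the peak caller, a value the authors deposited with each peak, was 5.28 and 5.51 in ARID1B_WT and 5.66 and 5.75 in Empty_vector. Empty_vector 1 and 2 of the other runs held 45286 and 49528 peaks, so list length also differed between runs with the same construct. No read counts are given, so depth is unknown, and a longer list from deeper sequencing and one from more open chromatin cannot be told apart.

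1 library stood apart in a way that touches its label. The 11 best-ranked peaks of the library labelled Empty_vector 3 all lay within 0.379 Mb of chromosome 6 (hg19, chr6:157150375-157528999). They were 148 to 2629 bp wide, 7 of them under 350 bp, with a fold of 3.94 to 24.1 and a -log10 p-value of 240 to 799. The best peak of that list anywhere else reached 189. ARID1B_WT 1 and 2 called 4 and 3 of these 11 peaks at full length, ARID1B_S320_G327del 1 and 2 called 6 each, Empty_vector 4 called 0, and Empty_vector 1 and 2 called 1 each. Of the ARID1B deletions in later runs, both ARID1B_A457_G461del and both ARID1B_Block13del libraries called 4, and ARID1B_Block9del 1 and 2 called 4 and 5. Libraries of the ARID1A constructs called 0 to 2. Of the gained regions defined below, 2 lay in this interval. The lead peak, chr6:157469758-157470083, had a fold of 8.85 and rank 5271 in ARID1B_WT 1 and a fold of 7.72 and rank 10001 in ARID1B_WT 2. In Empty_vector 3 it had a fold of 17.2 and rank 1, and it was not called in Empty_vector 4. In all, 15 of the 1000 best peaks of Empty_vector 3 had no peak in Empty_vector 4, and the 4 beyond chromosome 6 lay at chr12:121416578-121416898, chr12:121426642-121426825, chr12:121431337-121432209 and chr1:27022928-27024011. The same count was 0 for ARID1B_WT 1 against ARID1B_WT 2, 0 in reverse, and 0 for Empty_vector 4 against Empty_vector 3. RefSeq places ARID1B on chromosome 6 and ARID1A on chromosome 1. An hg19 gene annotation was not used here, so these peaks were assigned to no gene. Over all regions of the equal-length lists described next, Empty_vector 3 was closer to Empty_vector 4 than to ARID1B_WT: the Jaccard index, regions called by both lists over regions called by either, was 0.787 between the Empty_vector lists, 0.758 between the ARID1B_WT lists and 0.483 to 0.503 across the groups. Whether the label of this library is right, or whether its list holds DNA from another source, was not tested. This list sets the equal length used below and is 1 of the 2 controls. The counts, widths, strengths, gained shares by chromosome and recovery in other runs are also given without it as a control. Closed shares by chromosome and values by rank bin, in held-out libraries, by quartile and in 1 Mb windows are not. Equal lists without Empty_vector 3 keep the length it sets, so its influence through that length is not taken out.

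To set list length aside, only peaks on chromosomes 1 to 22 and X were kept, and each list was cut to its 24527 peaks with the highest -log10 p-value, the length of the Empty_vector 3 list on these chromosomes. Trimmed lists covered 22.5 and 20.5 Mb in ARID1B_WT and 19.1 and 22 Mb in Empty_vector. Their last peaks were not of equal strength, at a -log10 p-value of 15.5 and 13.9 in ARID1B_WT and 5.24 and 8.24 in Empty_vector. The first peaks left out stood at 15.5 and 13.9 in ARID1B_WT and 8.24 in Empty_vector 4, while Empty_vector 3 lost none. Overlapping peaks of the 4 lists were merged into regions, and the 28662 regions called by at least 2 libraries were compared. A region is called gained if both ARID1B_WT libraries and neither Empty_vector library called it, and closed in the opposite case.

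ARID1B_WT cells gained 6109 regions, 21.3% of those compared, and 4455 regions, 15.5%, were closed. Both lists of each group called 14504 regions (50.6%), named constant here, and the remainder had other patterns. Setting the Empty_vector libraries of the other runs against those of this run in the same way gave 5.93% (1537 regions) called by Empty_vector 1 and 2 alone and 4.91% (1272 regions) called by Empty_vector 3 and 4 alone, of 25902 compared. The separate comparison of ARID1A_WT with Empty_vector 1 and 2, whose libraries share their own date codes, gave 16.5% (4639 regions) gained and 12.7% (3559 regions) closed of 28090 compared. Without Empty_vector 3, ARID1B_WT gained 6307 regions and 6820 were closed, and without Empty_vector 4 the counts were 6396 and 6903. With 1 Empty_vector list left, the closed count thus passed the gained one and was over 1.5 times that of the 4 libraries. A closed region then needs 1 list to call it in place of both, so the order of the 2 counts was not the same with and without an Empty_vector library. Without ARID1B_WT 1 the counts were 8116 gained and 5834 closed, and without ARID1B_WT 2 they were 7770 and 5533.

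The whole lists gave another picture. Of 56123 regions called by at least 2 libraries at full length, 28638 (51.0%) were gained and 555 (0.989%) were closed, with 21061 (37.5%) in all 4 lists. Most of the gain at full length lay in the lower part of the ARID1B_WT lists, where 19282 gained regions (67.3%) were in neither trimmed ARID1B_WT list. These whole-list gained regions had a median width of 538 bp and a median fold of 5.24 and 5.37 in ARID1B_WT 1 and 2. The whole-list closed count was 2181 without Empty_vector 3, 1151 without Empty_vector 4, 1241 without ARID1B_WT 1 and 882 without ARID1B_WT 2. A list of fixed length gives up a peak for each one that enters, so equal lists make closed calls also where a region only lost rank, and the balance of the counts is a description. Lengths other than 24527 were chosen after seeing the data. At 2500 peaks per list 180 regions were gained and 166 closed, at 10000 peaks 1403 and 909, and at 17500 peaks 3526 and 2609.

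**Figure D1:**
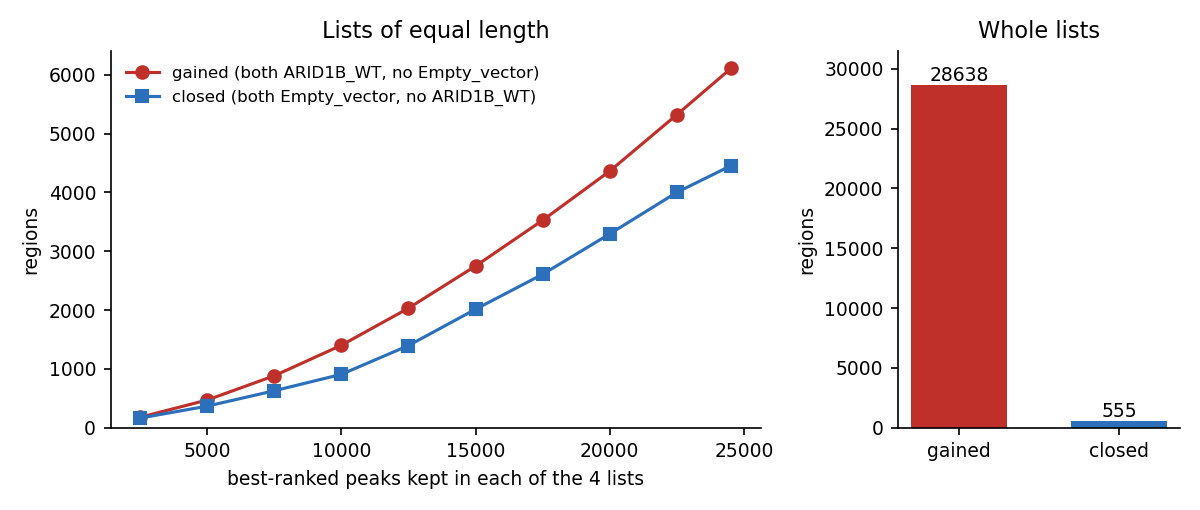
Number of gained and closed regions against the number of best-ranked peaks kept in each of the 4 lists (left) and in the whole lists (right). Both counts grow with the length kept, to 6109 gained and 4455 closed at 24527 peaks, where fixed list length itself makes closed calls. The whole lists hold 28638 gained and 555 closed regions.

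Gained and closed regions differed in what the other group's list held further down. Of the 6109 gained regions, 5988 (98.0%) were in neither Empty_vector 3 nor 4 even at full length, and 121 were in 1 of them. Since the Empty_vector 3 list was not shortened by trimming, this count rests on the 28314 peaks of Empty_vector 4 alone. The longer lists of Empty_vector 1 and 2 did not call 5123 gained regions (83.9%), and 5118 (83.8%) were in none of the 4 Empty_vector lists. Closed regions were mostly still called by ARID1B_WT: 3472 of 4455 (77.9%) were in both ARID1B_WT lists at full length, 591 (13.3%) in 1 and 392 (8.80%) in neither. Their median rank there was 35078 of 63482 peaks in ARID1B_WT 1 and 35640 of 59776 peaks in ARID1B_WT 2. Their median fold there was 4.69 and 4.80, over the 3890 and 3645 closed regions called. Over all 4455 closed regions the median fold was 4.66 and 5.14 in Empty_vector 3 and 4. Their median -log10 p-value in Empty_vector 3 and 4 was 9.16 and 12.4, while the trimmed ARID1B_WT lists ended at 15.5 and 13.9. The name closed therefore stands for a lower rank in most of these regions. The share in neither ARID1B_WT list was 15.3% without Empty_vector 3, 16.7% without Empty_vector 4, 16.0% without ARID1B_WT 1 and 11.7% without ARID1B_WT 2. The ARID1B_WT lists are over 2 times as long as those of Empty_vector 3 and 4, so a region has more room to appear in them. The 2 full-length shares are thus not on the same footing.

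Gained regions were of middle strength. Their median rank was 15017 in ARID1B_WT 1 and 14239 in ARID1B_WT 2, and the best were at rank 515 and 220. In the 5000 strongest peaks lay 307 gained regions in ARID1B_WT 1 and 411 in ARID1B_WT 2. Fold enrichment was close to that of constant regions, with a median of 6.49 and 6.81 at gained regions and 6.43 and 6.82 at constant regions in ARID1B_WT 1 and 2. The -log10 p-value was lower, at 21.3 and 19.5 for gained and 29.6 and 25.4 for constant regions, and the gained peaks were narrower (median 635 and 588 bp, against 1037 and 945 bp). Closed regions were weak in the Empty_vector lists that called them. Their median rank was 18752 in Empty_vector 3 and 19433 in Empty_vector 4, the best rank was 5089 and 6078, and no closed region was in the 5000 strongest peaks of either list. Their median fold was 4.66 and 5.14, where constant regions had 6.57 and 6.48 in the same lists. Without Empty_vector 3 the median rank of gained regions was 15045 and 14287 in ARID1B_WT 1 and 2, and that of closed regions was 20262 in Empty_vector 4. These strengths belong to the lists that chose the regions and are given as a description.

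Along the ranks, the strongest peaks of all 4 lists were almost all constant. Among the best 2500 peaks 3.0% and 4.0% lay in gained regions in ARID1B_WT 1 and 2, and no peak of Empty_vector 3 or 4 lay in a closed one. Further down the ARID1B_WT lists the gained share reached 35.6% of ranks 15001 to 17500 in ARID1B_WT 1 and 36.0% of ranks 12501 to 15000 in ARID1B_WT 2. Below that it was lower again, at 26.4% and 24.3% in the last bin, where peaks called by 1 list alone made up 28% and 30.8%. In Empty_vector 3 the closed share passed 20.0% only from rank 12501 and reached 47.0% of ranks 17501 to 20000. Over a whole trimmed list, gained regions held 24.9% of the peaks in each ARID1B_WT library, and closed regions held 18.6% and 18.2% of those in Empty_vector 3 and 4. Among constant regions, the mean rank in ARID1B_WT minus that in Empty_vector had a median of 977 places, with 90% of regions between -3668 and 7739. The rank in ARID1B_WT 1 minus that in ARID1B_WT 2 had a median of -169 places, with 90% of regions between -6353 and 5732. For Empty_vector 3 minus Empty_vector 4 the median was 58 places, with 90% between -3748 and 4138. Single libraries are compared there and means of 2 libraries between the groups, so the ranges are not on the same footing. Gained and closed peaks also take up ranks in these lists, so the shift between the groups is a description.

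**Figure D2:**
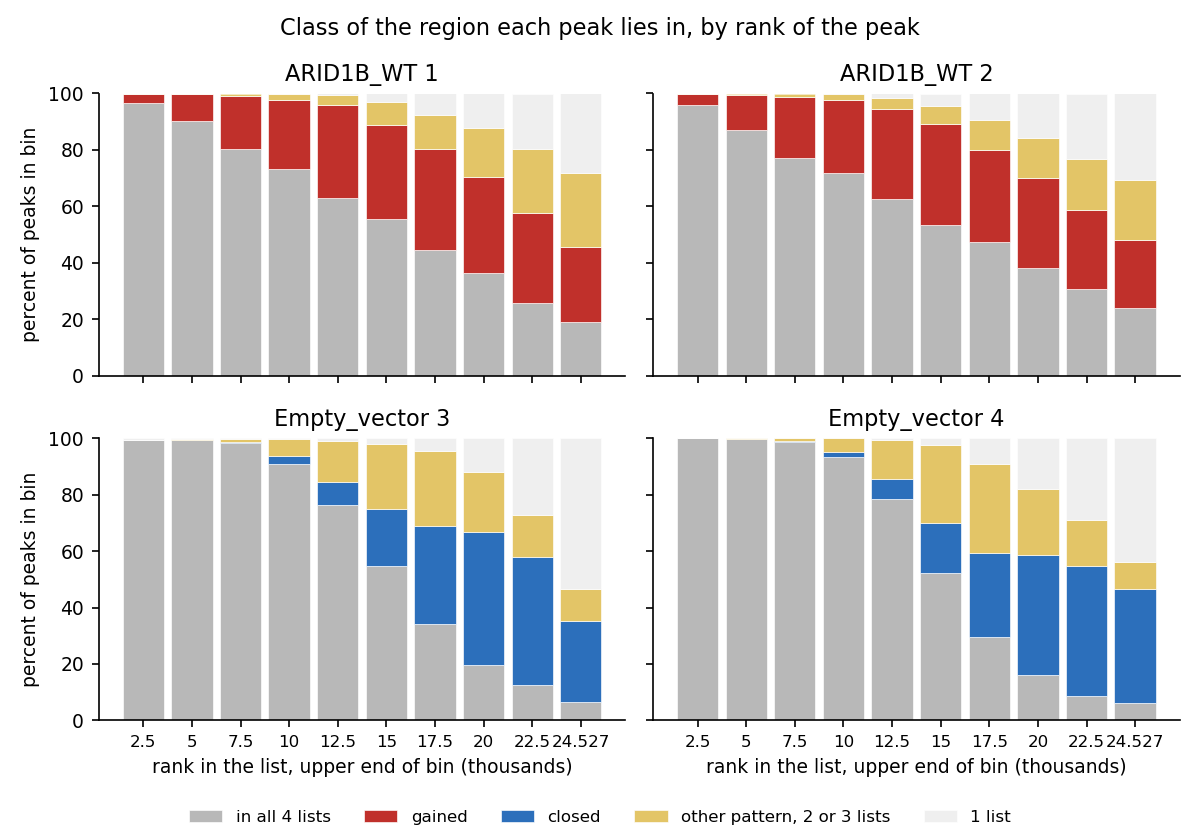
Percent of the peaks in each bin of 2500 ranks (the last bin ends at 24527) that lie in constant, gained, closed or other regions, for ARID1B_WT 1 and 2 (top) and Empty_vector 3 and 4 (bottom). Gained regions (red) enter the ARID1B_WT lists near the top and peak at 35.6% and 36.0% before a lower share in the last bins, while closed regions (blue) enter the Empty_vector lists only below rank 5000.

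Gained regions had a narrower range of widths than closed ones. The median width was 667 bp for gained regions, 549 bp for closed regions and 1159 bp for constant regions. Of the gained regions 90% were 358 to 1243 bp wide, against 270 to 1922 bp for closed regions. Regions under 500 bp were 20.8% of the gained and 42.9% of the closed ones, and regions over 1500 bp were 2.11% of the gained and 10.7% of the closed ones. Constant regions had 7.76% under 500 bp and 26.6% over 1500 bp. Without Empty_vector 3 the medians were 667 bp for gained, 406 bp for closed and 1126 bp for constant regions. In all, gained regions covered 4.36 Mb, closed regions 3.39 Mb and constant regions 17.7 Mb. Width went with disappearance among closed regions: of the narrowest quartile (198 to 377 bp) 21.0% were in neither ARID1B_WT list at full length, and of the widest (962 to 5000 bp) 0.898%. The constant regions themselves were of like width in the groups, with a median of 1039 and 947 bp of peak per region in ARID1B_WT and 956 and 1042 bp in Empty_vector.

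**Figure D3:**
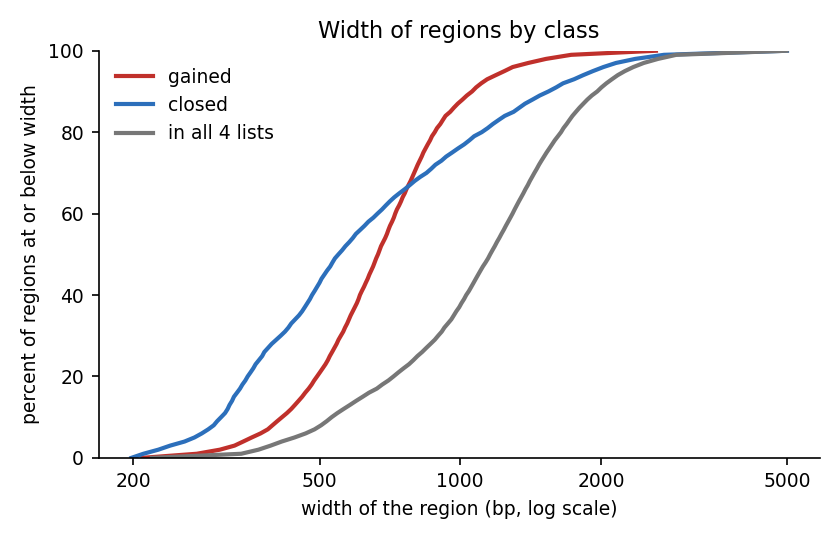
Cumulative percent of regions by width (bp, log scale) for the 6109 gained, 4455 closed and 14504 constant regions. The closed curve starts at smaller widths than the gained curve and crosses it, with medians of 667 bp (gained), 549 bp (closed) and 1159 bp (constant).

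The calls were then scored in libraries that had no part in them. Regions were chosen in 1 library of each group (8088 to 8597 gained and 8093 to 8476 closed regions) and looked up in the library of each group left out. The held-out ARID1B_WT library called 76.2% ± 1.84 of the gained regions and the held-out Empty_vector library 4.89% ± 1.60 (SD, n = 2 each). The 71.4 percentage points between them gave p = 0.333 in the exact permutation test (two-sided). Of the closed regions the held-out ARID1B_WT library called 17.1% ± 2.60 and the held-out Empty_vector library 70.0% ± 1.71 (SD, n = 2 each), or -52.9 points, with the same p (exact permutation test, two-sided). The values of the 2 groups did not overlap in either case. Recovery of gained regions by the held-out ARID1B_WT library went with rank. It was 100% for regions at ranks 1 to 5000, 92.7% at 10001 to 15000 and 52.2% at 20001 to 24527, while the held-out Empty_vector library called 2.24%, 3.75% and 6.48%. Closed regions at ranks 1 to 5000 were few and depended on the Empty_vector library that chose them. Of those chosen in Empty_vector 3 (20 and 22 regions), the held-out ARID1B_WT library called 15.0% and 22.7%. Empty_vector 4 called 15.0% and 18.2% of them. Of those chosen in Empty_vector 4 (2 and 3 regions), both held-out libraries called 100%. Closed regions at ranks 5001 to 10000 (101 to 198 regions) were called at 54.2% on average in the held-out ARID1B_WT library. The held-out Empty_vector library called 95.3% of them on average. At ranks 20001 to 24527 the averages were 6.57% and 53.9%.

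Libraries of the other runs called the gained regions along the same line. ARID1A_WT 1 and 2, which express the paralog, called 58.3% ± 0.0926 of the 6109 gained regions, and Empty_vector 1 and 2 called 2.43% ± 0.0116 (SD, n = 2 each). ARID1A_WT was higher by 55.8 points, with p = 0.333 in the exact permutation test (two-sided), and neither group had a part in choosing the regions. ARID1A_WT 1 shares its date code with Empty_vector 1, and ARID1A_WT 2 shares another with Empty_vector 2. The tests given here do not use this pairing by run. Of the 4455 closed regions ARID1A_WT called 31.7% ± 0.381 and Empty_vector 1 and 2 called 70.3% ± 2.89 (SD, n = 2 each), or -38.7 points, again with p = 0.333 (exact permutation test, two-sided). At full length the same closed regions were called by 94.9% ± 3.13 in ARID1A_WT and by 99.0% ± 0.286 in Empty_vector 1 and 2 (SD, n = 2 each). For gained regions the full-length shares were 98.7% ± 0.961 in ARID1A_WT and 13.5% ± 1.72 in Empty_vector 1 and 2 (SD, n = 2 each). With lists cut to equal covered length the differences were 34 points for gained and -16.0 points for closed regions. Constant regions were called at 97.7% by ARID1A_WT and 98.5% by Empty_vector 1 and 2. Without Empty_vector 3 in the choice, the differences were 54.7 points for gained and -38.0 points for closed regions. The 95% Wilson intervals of these shares, which cover counting error over regions only, reached at most 1.47 points to either side.

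Strong gained regions were shared with ARID1A_WT more often than weak ones. By quartile of mean rank in the ARID1B_WT lists, ARID1A_WT called 87.0% of the strongest, 64.8% and 46.4% of the middle ones and 34.7% of the weakest, while Empty_vector 1 and 2 called 1.44%, 1.87%, 2.23% and 4.19%. The trend by strength was not tested. Width went the same way, from 44.5% of the narrowest quartile (209 to 526 bp) to 70.9% of the widest (834 to 2622 bp) in ARID1A_WT. Both ARID1A_WT lists called 3118 gained regions (51.0%), 1 list called 882 and neither called 2109 (34.5%). Of those 2109, 93.8% were in both ARID1A_WT lists at full length and 28 were in neither. Gained regions that ARID1A_WT did not call in equal lists were therefore mostly present further down its lists, which run to 76589 and 62091 peaks.

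ARID1B_S320_G327del, from the same run as the compared libraries, called 82.6% ± 0.764 of the gained and 9.15% ± 0.365 of the closed regions in equal lists (SD, n = 2 each). At full length the shares were 99.5% ± 0.162 and 85.3% ± 3.75 (SD, n = 2 each). Without Empty_vector 3 in the choice, the equal-list shares were 82.4% and 7.35%. It called 99.1% of the strongest quartile of gained regions and 60.7% of the weakest. Its shares were scored on regions chosen against the Empty_vector libraries of its own run, so they share controls and run with ARID1B_WT. Among groups of later runs, which have no Empty_vector library of their own, ARID1B_A457_G461del called 70.4% ± 0.995, ARID1B_Block13del 32.3% ± 0.706 and ARID1B_Block9del 6.61% ± 0.718 of the gained regions (SD, n = 2 each). Of the closed regions they called 25.7% ± 0.794, 66.2% ± 0.444 and 79.1% ± 0.841, in that order (SD, n = 2 each). The genotype label of these 3 groups names the vector control while their titles name the deletions, and the titles were followed. In trimmed lists of the 24 libraries not used to choose the regions, 3 of which are shorter than the equal length (down to 19433 peaks), a gained region was called by a median of 6, a closed region by 13 and a constant region by all 24. In these lists no other library called 297 gained regions, while at full length each gained region was in at least 1 of the 24.

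**Figure D4:**
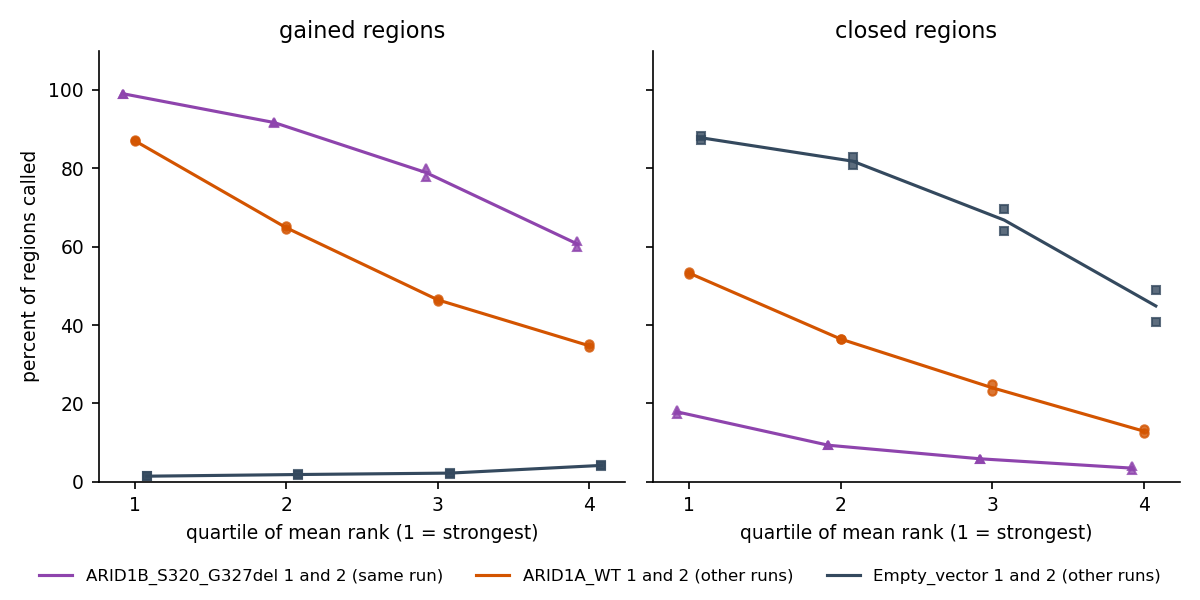
Percent of gained (left) and closed (right) regions called in equal-length lists by ARID1B_S320_G327del 1 and 2, ARID1A_WT 1 and 2 and Empty_vector 1 and 2, by quartile of the regions' mean rank (1 is the strongest). Points are libraries and lines join their means. For gained regions ARID1A_WT runs from 87.0% in quartile 1 to 34.7% in quartile 4, and Empty_vector 1 and 2 stay between 1.44% and 4.19%.

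Gained regions were unevenly spread over the chromosomes. The share of compared regions that were gained was highest on chromosome 5 (31.8%, 602 gained and 234 closed regions), followed by chromosomes 10 (28.2%), 8 (27.7%) and 7 (26.8%). It was lowest on chromosome 19 (6.68%, 102 gained and 275 closed) and X (8.21%, 45 gained and 130 closed), and low on chromosomes 21 (11.9%), 17 (13.3%) and 16 (13.7%). Chromosome 19 also had the most constant regions per 10 Mb, at 160, against 48.4 on chromosome 5. Without Empty_vector 3 the gained share was 37.7% on chromosome 5, 8.98% on 19 and 10.8% on X. These are shares of the regions called by at least 2 of the lists left. A closed region then rests on 1 list and falls outside those regions, so no closed share is given. With the 4 libraries closed regions varied less, between 12.4% on chromosome 5 and 23.7% on X. In the comparison of ARID1A_WT with Empty_vector 1 and 2, which shares no library with this one, the gained share was again highest on chromosome 5 (24.5%) and lowest on chromosome 19 (5.78%). Over the 23 chromosomes, Pearson's r of the gained shares of the 2 comparisons was 0.961 and Spearman's rho 0.95. For the closed shares they were 0.258 and 0.283. Both comparisons share the line and each chromosome's gene density and base composition, so these values are a description with no test.

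**Figure D5:**
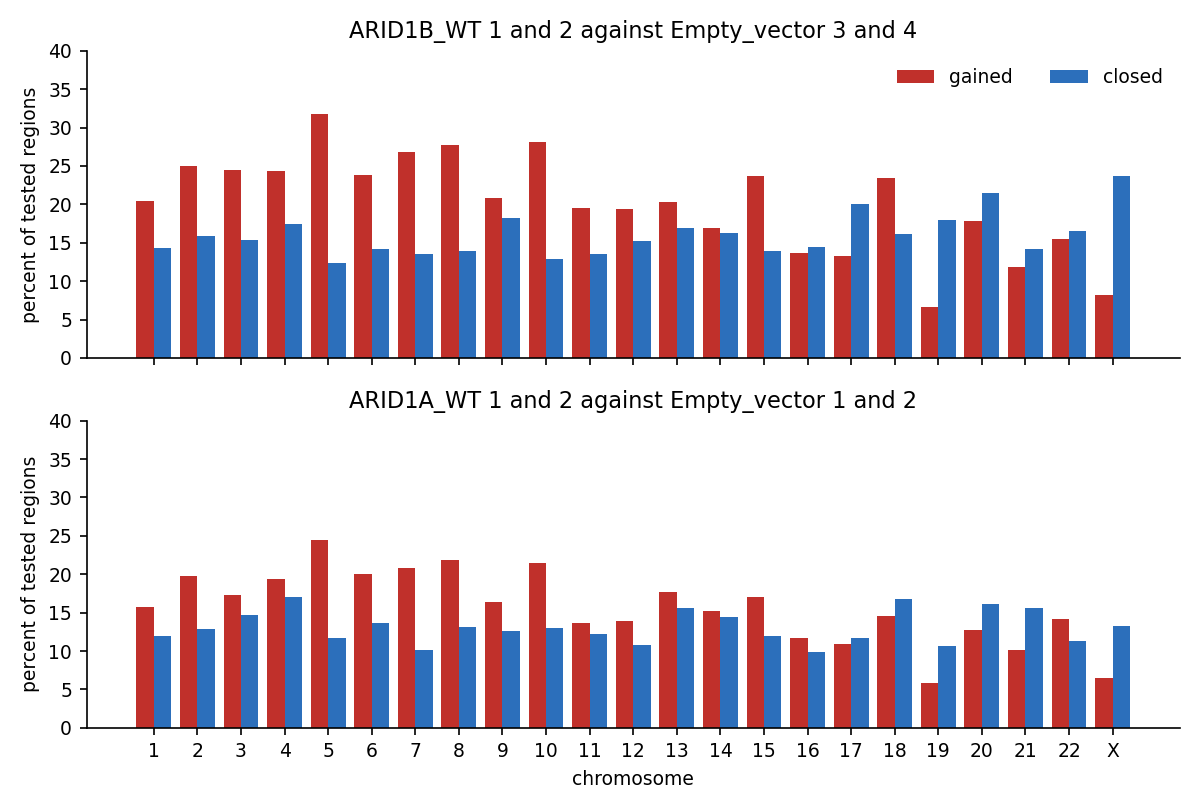
Percent of compared regions that were gained (red) or closed (blue) on each chromosome, for ARID1B_WT 1 and 2 against Empty_vector 3 and 4 (top) and for ARID1A_WT 1 and 2 against Empty_vector 1 and 2 (bottom). Chromosome 5 has the highest gained share in both, at 31.8% and 24.5%, and chromosome 19 the lowest, at 6.68% and 5.78%.

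Gained regions lay further from constant ones than closed or other constant regions did. The median distance to the nearest constant region was 47.9 kb from a gained region, 26.8 kb from a closed region and 30.2 kb from another constant region. Without Empty_vector 3 it was 45.2 kb from a gained and 32.3 kb from a closed region. Within 1 kb of a constant region lay 5 gained and 73 closed regions. Within 50 kb of a constant region lay 51.4% of gained and 67.3% of closed regions, and 65.4% of constant regions had another that near. The nearest gained region was at a median of 59.7 kb from a gained region, with 46.0% within 50 kb, and the nearest closed region at 75.1 kb from a closed one, with 41.5% within 50 kb. From a gained region the nearest closed region was at a median of 176 kb. In windows of 1 Mb, 1787 of the 2457 windows with a compared region held a gained one, 1555 held a closed one and 1234 held both. The 449 windows with 5 or more gained regions held 3236 of them. The 3 windows with the most gained regions were on chromosome 7 at 105 to 106 Mb (20 gained, 1 closed, 33 compared), chromosome 5 at 55 to 56 Mb (20 gained, 3 closed, 35 compared) and chromosome 10 at 73 to 74 Mb (19 gained, 4 closed, 43 compared). Closed regions were densest on chromosome 11 at 104 to 105 Mb (23 closed, 0 gained) and on chromosome 13 at 81 to 82 Mb (22 closed, 0 gained). These windows of closed regions were named after their values were seen.

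Among single gained regions the best mean rank belonged to chr7:101171027-101171771, 745 bp wide. Its fold was 6.86 in ARID1B_WT 1 (rank 1073) and 8.61 in ARID1B_WT 2 (rank 260), and no Empty_vector list called it at any length. The next was chr8:131495312-131496228, with a fold of 7.05 and 10.3 at ranks 1236 and 220. On chromosome 5, chr5:71462007-71462940 had a fold of 7.00 and 7.54, and chr5:141289634-141290252 had 8.33 and 8.94. These regions were likewise in no Empty_vector list. The region chr2:86299309-86300115 had a fold of 7.13 and 7.43 and was in 1 full-length list of Empty_vector 1 and 2. The 10 best gained regions were 581 to 1041 bp wide and lay on 5 chromosomes. Both ARID1A_WT and both ARID1B_S320_G327del libraries called all 10, and Empty_vector 1 and 2 called none of them in equal lists. The widest gained regions were weaker: chr15:70581583-70584204 was 2622 bp wide with a fold of 3.07 and 3.47 in ARID1B_WT. The next, chr6:90020534-90023094, was 2561 bp wide with a fold of 3.92 and 4.93. No ARID1A_WT library called it in equal lists, and 3 of the 24 other libraries did. On chromosome 7, chr7:101178329-101180834 was 2506 bp wide with a fold of 3.17 and 3.43.

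The best closed regions ranked far below the best gained ones. First was chr7:105292882-105293198, 317 bp wide, with a fold of 7.73 in Empty_vector 3 and 6.52 in Empty_vector 4. Neither ARID1B_WT list called it at full length, and Empty_vector 1 and 2 both called it in equal lists. It lies in the 1 Mb window of chromosome 7 that held 20 gained regions. The region chr13:81119073-81120135 had a fold of 4.74 and 4.59 in the full ARID1B_WT lists, against 7.59 and 6.0 in Empty_vector 3 and 4. In equal lists both Empty_vector 1 and 2 called it and no ARID1A_WT library did. The region chr11:121800668-121801574 had a fold of 2.84 and 3.18 in the full ARID1B_WT lists and 5.29 and 4.11 in Empty_vector 3 and 4. It was the 1 region of the 10 best that neither Empty_vector 1 nor 2 called in equal lists, while 1 ARID1A_WT and 1 ARID1B_S320_G327del library called it. Of the 10 best closed regions, 7 were in both ARID1B_WT lists at full length, and Empty_vector 1 or 2 called 9 in equal lists. The 5 best closed regions that were in neither full ARID1B_WT list were all narrow, at 236 to 405 bp. Among them chr5:103514860-103515095 was called by both ARID1A_WT and both ARID1B_S320_G327del libraries. The 3 widest closed regions all lay on chromosome 17 and were 4387 to 5000 bp wide. The widest, chr17:79825163-79830162, was in both ARID1B_WT lists at full length with a fold of 2.63 and 2.61. Its fold in Empty_vector 3 and 4 was close to that, at 2.96 and 2.61. Which genes or promoters these regions belong to was not analysed here.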

How the data were processed

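Chromatin accessibility was assayed in 28 AN3CA libraries, of which 4 form the comparison. Tagmented DNA went through a purification column and 7 PCR cycles, per the labels. The submitters' processing notes name Bowtie2, bcl2fastq, MACS2, Picard 2.8.0 and SAMtools 0.1.19, with build hg19, and give no peak caller options. The sample titles name ATAC-seq and the series design text CUT&Tag. Lists were taken as ATAC-seq. The authors deposited 1 broad peak list per library, with a score, a fold enrichment, a -log10 p-value and a -log10 q-value for each peak. These values are the authors' own and served to rank or describe peaks within a list.

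Peaks outside chromosomes 1 to 22 and X (39 to 50 per list of the 4) were left out. Lists were ranked by -log10 p-value and trimmed to 24527 peaks. Peaks of the 4 lists that overlap by at least 1 bp were merged, and a library calls a region if a peak of it overlaps it by at least 1 bp. No 2 of the 4 lists held the same values. Group shares were tested over libraries with the exact permutation test (two-sided). The region calls are rules on lists, with no test per region. Functions were tested on simulated lists. Named regions are the 10 gained and 10 closed with the best mean rank, the 5 best of each absent from the other group's full lists, the 3 widest of each and the 3 windows of 1 Mb with the most gained regions. The members and rules were chosen with earlier results of these data known. Python 3.11.15, NumPy 2.4.6, pandas 2.3.3 and SciPy 1.17.1 were used. Genes, promoters, motifs and cell type markers were not analysed here, as no hg19 annotation or sequence was used.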

Additional observations from a re-analysis of the deposited data

How the results depend on the processing

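Of 122 recomputed values for 12 results, 0 reversed and 36 moved. The other 86 kept their sign (recovery), stayed within 1.5 times (counts) or stayed within their error (shares, widths). Among these, 5 ratios of list length were counted as kept because ARID1B_WT had the longer lists. Only recovery could count as reversed, and the order of gained and closed counts did reverse without either Empty_vector library. A required overlap of 50% could not change the counts, as merged regions hold their peaks whole. The differences in recovery kept their sign in all alternatives run, at 34 to 69.4 points for gained and -40.7 to -16.0 points for closed regions in the other runs, and at 59.3 to 74.9 and -53.1 to -9.80 points in held-out libraries. Held-out recovery cannot be had with a library left out. Counts followed the region definition. Whole lists gave 28638 gained and 555 closed regions with a gained median width of 538 bp, 12263 peaks per list gave 1964, 1358 and 750 bp, and windows of 500 bp gave 14512 and 10033. The gained width was 702 bp with 19433 peaks per list and 562 bp with ranks by fold.

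The share of gained regions absent from the other group's full lists was 79.4% with 12263 peaks, 91.8% with 19433 peaks, 96.3% at equal covered length, 99.7% with ranks by fold, 98.4% in windows and 94.9% with a -log10 q-value of at least 5. For closed regions it was 0.810%, 5.28%, 6.13%, 5.86%, 15.1% and 6.68%. The cause was not tested. With 1 library left out, closed regions numbered 5533 to 6903 (882 to 2181 in whole lists), gained width was 548 to 667 bp, and the absent shares were 96.7% to 100% for gained and 11.7% to 16.7% for closed regions.

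The titles share no replicate number between ARID1B_WT and Empty_vector. With the numbers in the peak names as a replicate block, chosen after seeing the data, the held-out differences were 71.1 and -52.9 points. Rank differences between numbers 1 and 2 did not go together in the groups (r = -0.034 over 14504 constant regions). Shared handling need not leave such a pattern, so whether libraries with the same number were handled together stays unknown. The promoter and motif alternatives were not run. Depth is unknown and limits what an absent peak means.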
